A study of Homo sapiens with 10 samples.

Results

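Expression at 4 to 7 h of exposure to stellate cell supernatant was compared with controls in MiaPaCa-2, a human pancreatic carcinoma line. The comparison used 6 of the 10 Affymetrix U133 Plus 2.0 arrays of the series: the treated arrays labelled 4, 5, 6 and 7 h and the control arrays labelled 0 and 24 h. It was defined by these labels and not by any expression value. The change of a gene is the mean of the 4 treated arrays minus the mean of the 2 controls on the log2 scale, where 1 is a 2-fold difference.

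Treated cells had received supernatant of pancreatic stellate cells, the fibroblast-like cells that lay down the stroma of pancreatic tumours. Those stellate cells had themselves been primed with supernatant combined from 8 tumour cell lines. Titles of the controls carry the treatment wording that all titles share, followed by control at 0 h or at 24 h. The sources used here do not say whether a control medium was added to control cells. The remaining arrays were treated for 1, 2, 3 and 24 h, with 1 array at each time. Whether each array had its own culture is not stated, so the p-values reflect spread between arrays that may be technical. That spread includes change from 4 to 7 h, because each hour had 1 array.

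Conditioned medium of this kind carries cytokines, growth factors and metabolites together. Inflammatory cytokines act through NF-kB, a family of transcription factors held in the cytoplasm by IkB proteins, and its first targets include its own inhibitors and neutrophil-attracting chemokines. Metallothioneins are small cysteine-rich proteins that bind zinc and copper and are transcribed through MTF1, a metal-sensing factor. ATF4 is the transcription factor through which cells answer amino acid shortage, and TXNIP and DDIT4 are genes that restrain glucose uptake and mTOR signalling.

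Promoter stretches of some genes named in the inflammatory and metal-binding results are shown first. They are not a sample of those genes. Coordinates are of GRCh38.p14, sequences are RefSeq's promoter windows of 250 bases before to 50 bases after the start, and each line runs 5′ to 3′ on the gene's strand. Capitals mark a match to the kappaB motif on either strand (GGG, any 2 bases, TT, any 1 base, CC), with up to 20 bases on each side. Every gene printed for this motif holds a match, so these genes do not stand for all inflammatory genes that rose. TNFAIP2 and NFKBIE, which also rose, were not among the genes found to hold one. The windows are chr3:101827747-101827796 (plus strand) for NFKBIZ, chr14:35404801-35404850 (minus) for NFKBIA and chr6:137867172-137867221 (plus) for TNFAIP3. Those of the chemokines are chr4:73869294-73869343 (plus) for CXCL1, chr4:74099244-74099293 (minus) for CXCL2, chr4:74038739-74038788 (minus) for CXCL3, chr4:73998739-73998788 (minus) for CXCL5 and chr4:73836568-73836617 (plus) for CXCL6.
NFKBIZ: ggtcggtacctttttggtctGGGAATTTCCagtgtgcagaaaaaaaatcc
NFKBIA: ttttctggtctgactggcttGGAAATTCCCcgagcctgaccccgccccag
TNFAIP3: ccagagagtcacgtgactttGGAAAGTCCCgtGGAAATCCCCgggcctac
CXCL1: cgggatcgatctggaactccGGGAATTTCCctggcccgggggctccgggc
CXCL2: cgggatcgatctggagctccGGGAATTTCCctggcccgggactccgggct
CXCL3: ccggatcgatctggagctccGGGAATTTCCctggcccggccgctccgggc
CXCL5: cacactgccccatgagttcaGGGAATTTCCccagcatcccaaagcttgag
CXCL6: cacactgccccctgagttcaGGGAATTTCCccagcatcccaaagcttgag
The 5 chemokine genes lie in one cluster and share sequence: CXCL5 and CXCL6 have the same base at 49 of these 50 positions, and CXCL1 and CXCL3 at 46 of 50. The CXCL2 stretch also follows those of CXCL1 and CXCL3 closely up to the match and just beyond it. The 5 chemokine matches are therefore not 5 separate instances of the motif. Matches began 67 bases before the start in TNFAIP3, 81 in NFKBIA, 78 to 91 in the chemokine genes and 223 in NFKBIZ.

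For the metallothioneins the promoter of MT1X is shown whole, chr16:56682220-56682519 on the plus strand. Capitals mark the 4 matches to the metal response element core, TGCACNC or TGCGCNC on either strand.
MT1X: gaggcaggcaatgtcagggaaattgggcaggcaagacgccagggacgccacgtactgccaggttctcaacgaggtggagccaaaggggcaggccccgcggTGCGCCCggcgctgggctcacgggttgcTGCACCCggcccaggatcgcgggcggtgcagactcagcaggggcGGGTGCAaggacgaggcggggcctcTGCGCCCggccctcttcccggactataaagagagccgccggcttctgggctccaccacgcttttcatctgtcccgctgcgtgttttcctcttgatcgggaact

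Of 11865 genes tested, 902 rose and 734 fell at 4 to 7 h, 13.8% in all (limma, Benjamini-Hochberg adjusted p below 0.05). The counts of each gene group are read against this background, in which 7.6% of all genes tested rose and 6.19% fell. At an unadjusted p below 0.05 in the limma fit there were 3529 of the 11865 genes, not split by direction here. List counts at an unadjusted p are to be read against that much larger share, not against 7.6% and 6.19%. Most changes were small. The median absolute change of the called genes was 0.56, 90.3% of them moved by less than 2-fold, and 98 rose and 61 fell by 2-fold or more. The median SD of a gene over the 4 treated arrays was 0.104, and the median absolute difference between the 2 controls was 0.19.

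All 4 treated arrays lay beyond both controls in 1632 of the called genes, 898 above them and 734 below. The 4 called genes that overlapped a control were CDC6, CFB, KLHL29 and PLSCR1. Lying beyond both controls was by itself common, since 39.3% of all genes tested did so with no test, 20.1% above and 19.1% below. At a distance of at least 1 from the nearer control the numbers were 37 above and 23 below.

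**Figure D1:**
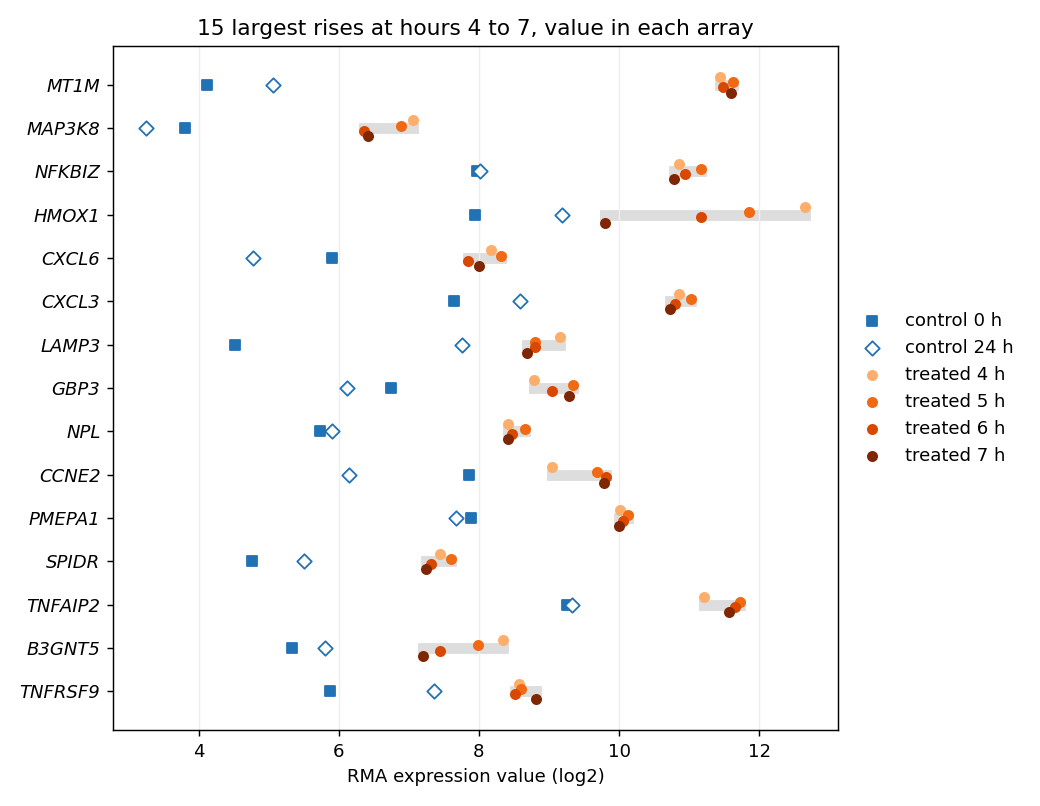
RMA expression value (log2, x axis) of the 15 genes with the largest rises at 4 to 7 h among called genes beyond both controls. Shown are each of the 4 treated arrays (circles, light to dark from 4 to 7 h) and the 0 h (square) and 24 h (diamond) controls. Grey bars span the treated arrays. By this selection the treated arrays lie right of both controls in every gene. The least room is in HMOX1 at 7 h and in LAMP3 against the 24 h control.

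MT1M, a metallothionein, had the largest rise of all genes tested. Its log2 values were 4.12 and 5.06 in the 0 h and 24 h controls and 11.44, 11.62, 11.48 and 11.60 at 4, 5, 6 and 7 h. The 4 treated arrays were nearly level and stood far above both controls. The change was 6.94 ± 0.48 (SE of the limma fit, adjusted p = 0.00031). Its control values lay below log2 5.79, the level that a gene's mean had to reach to be tested, so MT1M was tested through its treated arrays and the exact size of the change is uncertain. The size is as uncertain for the other genes with a control or window value under that level. For MT1M the treated 24 h array, at 7.69, was between the controls and the window.

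Of 10 genes tested for metallothioneins and zinc transport, 7 rose and 1 fell, and their median change was 1.23 against -0.01 over all genes tested. Medians of this and the other lists are of log2 changes. The 7 that rose were all metallothioneins, including MT1F, MT1X and MT1H. MT1F was 11.76 and 12.39 in the controls and 13.82, 13.86, 13.88 and 13.90 in the window, a change of 1.79 ± 0.18 (adjusted p = 0.00152). MT1X, whose promoter is given above, was 12.83 and 13.24 in the controls and 14.34, 14.35, 14.38 and 14.37 in the window. MT1H was 12.39 and 12.77 in the controls and 13.69, 13.72, 13.70 and 13.71 in the window. In these 3 genes the treated arrays were nearly level with each other and did not overlap the controls. The highest value of the full table was 14.79, and whether signal near the top of the scale limited these rises was not tested. Metallothionein transcripts are near-identical in sequence and several of these probe sets are of the cross-hybridising kind, so the members cannot be counted as independent.

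The member that fell was the zinc importer SLC39A10, by 0.89 ± 0.18 (adjusted p = 0.0139). The zinc exporter SLC30A1, a known MTF1 target, was described after its values were seen because it differed in course. It read 8.58 and 10.37 in the controls and 12.46, 11.37, 10.51 and 9.33 at 4, 5, 6 and 7 h. The 4 h array was the highest and the 7 h array lay below the 24 h control, and the change of 1.44 ± 0.72 did not pass the test (adjusted p = 0.215).

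Of 25 NF-kB feedback and target genes tested, 15 rose and 0 fell, and the median change was 0.58. NFKBIZ, an atypical nuclear IkB protein that works with NF-kB on secondary targets, was 7.97 and 8.01 in the controls and 10.85, 11.16, 10.94 and 10.78 in the window. Controls and treated arrays were separated by at least 2.77, the widest gap in the list, and the change of 2.95 ± 0.11 had the lowest adjusted p among the named genes (limma, 1.53e-06). TNFAIP3 encodes A20, a ubiquitin-editing inhibitor of the pathway. It was 5.67 and 6.06 in the controls and 7.55, 7.81, 7.63 and 7.48 in the window, a change of 1.75 ± 0.15 (adjusted p = 0.00064).

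NFKBIA, the classical IkB inhibitor, was 11.25 and 11.39 in the controls and 12.81, 12.94, 12.88 and 12.81 in the window, a change of 1.54 ± 0.13. NFKBIE, a further IkB protein, was 6.57 and 6.37 in the controls and 7.57, 7.62, 7.35 and 7.43 in the window, a change of 1.03 ± 0.15. The treated arrays lay above both controls in both genes. TNFAIP2, a TNF-inducible gene, rose by 2.25 ± 0.33 (adjusted p = 0.00603), from 9.25 and 9.32 to 11.21, 11.73, 11.65 and 11.57. At an unadjusted p below 0.05, 18 of the list were higher and 0 lower. The other members that rose included the subunit genes NFKB1, NFKB2, REL and RELB. RELA, which encodes the p65 subunit, did not pass the test, and neither did ICAM1, at a change of 0.04.

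Of 14 chemokine and cytokine genes tested, 9 rose and 0 fell, with a median change of 0.86. CXCL3, CXCL6, CXCL2, CXCL1, CXCL5 and CXCL8, ligands of the neutrophil receptor CXCR2, were all among them. CXCL6 was 5.90 and 4.77 in the controls and 8.17, 8.31, 7.85 and 8.00 in the window, a change of 2.75 ± 0.47 (adjusted p = 0.00935). CXCL3 was 7.65 and 8.59 in the controls and 10.85, 11.03, 10.80 and 10.72 in the window, a change of 2.73 ± 0.23 (adjusted p = 0.00064). Neither gene overlapped the controls. CXCL1 had control values of 11.30 and 11.18 and treated values of 12.57, 12.64, 12.59 and 12.54. CXCL2 rose by 1.60 ± 0.16 and CXCL5 by 1.26 ± 0.15. Probe sets of CXCL2 and CXCL5 are of the cross-hybridising kind, and related chemokine transcripts may share signal. At an unadjusted p below 0.05, 10 of the 14 were higher and 0 lower. CSF3, the granulocyte growth factor G-CSF, rose by 1.62 ± 0.27, whereas IL1B, at a change of -0.17, IL11 and LIF did not pass the test.

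The kappaB motif was in 15 of the 74 windows (20.3%) of genes that rose by 2-fold or more beyond both controls and had a promoter entry. The share was 6.8% over the genes tested with an entry, 5.7% over all windows of the table and 3.8% (2 of 52) among genes that fell as much. The 15 genes include the 8 shown, 5 of which are the clustered chemokines, and also PMEPA1, TNFRSF9, CHI3L2, IFIH1, PTX3, PANX1 and UPP1. The metal response element core is short and common. It was in 37 of the same 74 windows, 22 (42.3%) of the 52 and 39.2% over the genes tested. The windows of NFKBIZ, TNFAIP3, CXCL3, CXCL5 and CXCL6 also held this core, which is not marked in their stretches. Over all genes above both controls, whatever the size of the change, the kappaB share was 9.0% (66 of 734 windows), and over those below both it was 6.5% (41 of 629). A match is a description of these letters and says nothing of binding.

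Of 15 genes of STAT3 and IL-6 family signalling, 3 rose and 0 fell, with a median change of 0.24. CEBPD, a transcription factor of the acute-phase response, was 9.64 and 9.91 in the controls and 11.17, 11.21, 11.05 and 11.00 in the window, a change of 1.34 ± 0.11 (adjusted p = 0.00064). IL6R, the interleukin-6 receptor chain, was 4.99 and 4.87 in the controls and 7.50, 6.63, 6.53 and 6.38 in the window, highest at 4 h. Both controls of IL6R lay below the level that a gene's mean had to reach to be tested. IL6R was therefore tested through its treated arrays, and the size of its rise is uncertain. SOCS3, the feedback inhibitor of the pathway, rose by 0.68 ± 0.13. JAK1 and STAT3 did not pass the test, JAK1 at a change of 0.36 ± 0.12 (adjusted p = 0.0741).

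Of 16 interferon-stimulated and guanylate-binding genes, 5 rose and 0 fell. GBP3, a guanylate-binding GTPase, was 6.75 and 6.12 in the controls and 8.78, 9.34, 9.04 and 9.29 in the window, a change of 2.68 ± 0.32 (adjusted p = 0.00264). Its relative GBP1 was 6.35 and 6.08 in the controls and 7.63, 8.39, 8.04 and 8.10 in the window. For both genes the 4 h array was the lowest of the window and still above the controls. IFIH1, the RNA sensor MDA5, rose by 1.12 ± 0.14, IRF1 by 0.91 ± 0.13 and TAP1, a peptide transporter of antigen presentation, by 0.85 ± 0.12. Classical type I interferon targets of the list did not pass the test: ISG15 had a change of -0.02, IFIT1 of -0.13, IFIT2 of -0.43, RIGI of 0.26 and IFIT3 of 0.73 (adjusted p = 0.0831 for IFIT3). Before adjustment 8 of the 16 were higher and 2 lower at p below 0.05.

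Kinase signalling showed rises and falls side by side. MAP3K8, the kinase TPL2 that links NF-kB signalling to ERK, had the second largest rise among genes beyond both controls. It was 3.80 and 3.25 in the controls and 7.06, 6.89, 6.36 and 6.42 in the window, a change of 3.15 ± 0.39 (adjusted p = 0.00282). Its control values too lay below log2 5.79. Of 19 ERK pathway genes, 4 rose and 3 fell. The phosphatase genes DUSP2 and DUSP1 rose by 1.39 ± 0.16 and 1.23 ± 0.16. SPRED2, an inhibitor of the pathway, and ETV1, an ETS factor downstream of it, fell by 0.85 ± 0.19 and 1.29 ± 0.32. DUSP6, a common readout of ERK activity, had a change of -1.06 ± 0.40 and did not pass the test (adjusted p = 0.103).

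Of 21 immediate-early transcription factors, 2 rose and 2 fell. IER5 was 7.79 and 7.71 in the controls and 9.12, 9.19, 8.93 and 9.14 in the window. EGR3 was 6.83 and 6.81 in the controls and 9.13, 8.60, 7.85 and 7.55 in the window, falling at each hour while above both controls. EGR3 did not pass the test without the 5 h array (adjusted p = 0.0606) or with either control alone. KLF2 fell by 0.89 ± 0.20 and FOSL2 by 0.54 ± 0.15. FOS, JUN, EGR1 and MYC did not pass the test.

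**Figure D2:**
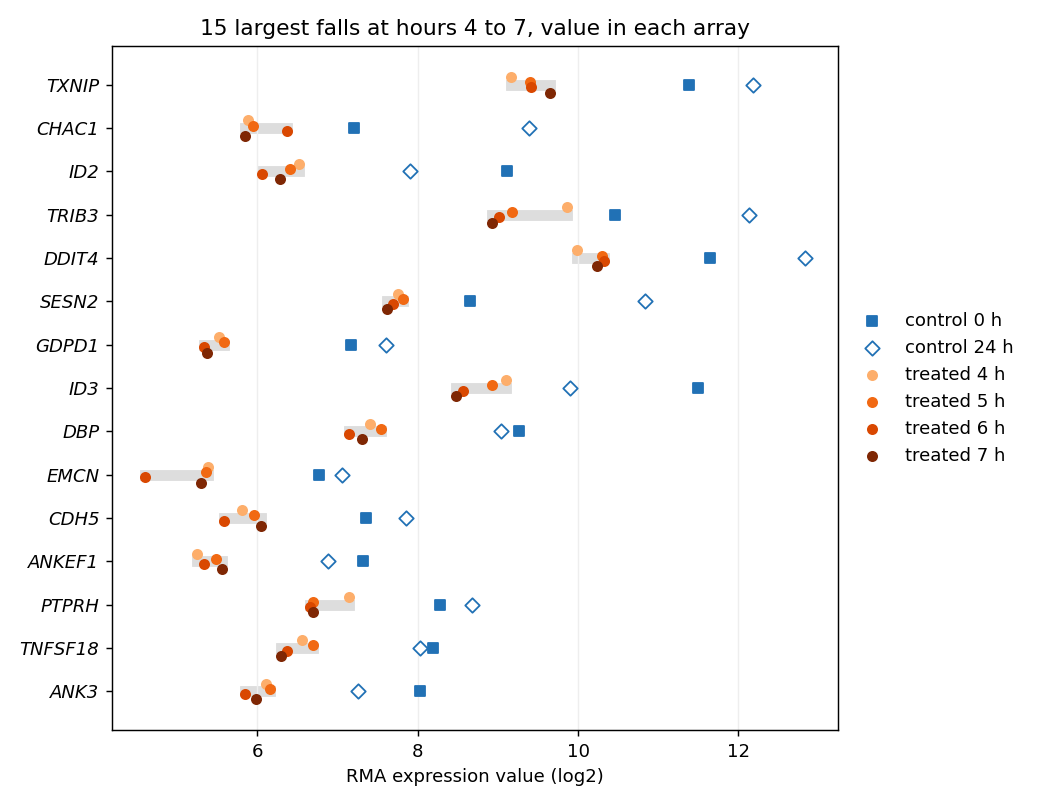
RMA expression value (log2, x axis) of the 15 genes with the largest falls at 4 to 7 h among called genes beyond both controls. Shown are the treated arrays (circles, light to dark from 4 to 7 h) and the 0 h (square) and 24 h (diamond) controls. Grey bars span the treated arrays. By this selection the treated arrays lie left of both controls in every gene. In CHAC1, SESN2 and TRIB3 the 24 h control stands well to the right of the 0 h control.

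TXNIP had the largest fall among genes beyond both controls. It encodes an arrestin-like protein that binds thioredoxin and limits glucose uptake. It was 11.38 and 12.18 in the controls and 9.16, 9.40, 9.41 and 9.65 in the window, a change of -2.37 ± 0.37 (adjusted p = 0.00647). The 4 treated arrays lay at least 1.73 below both controls.

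Of 23 genes of growth factor withdrawal and FOXO signalling, 8 fell and 2 rose, with a median change of -0.25. DDIT4, the stress-induced mTORC1 inhibitor REDD1, was 11.64 and 12.83 in the controls and 9.99, 10.30, 10.32 and 10.24 in the window. CCNG2, an unconventional cyclin linked to cell cycle exit, was 9.26 and 8.83 in the controls and 7.50, 7.79, 7.67 and 7.73 in the window. Neither overlapped the controls. TSC22D3, the glucocorticoid-induced leucine zipper gene, fell by 1.31 ± 0.16. YPEL3 fell by 1.38 ± 0.20, and the receptor gene ERBB3 fell by 1.30 ± 0.19. KLF11 and BCL2L11, the gene of the cell death protein BIM, were the 2 that rose. For TSC22D3, CCNG2 and ERBB3, 1 of their several probe sets moved the other way.

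The ID genes, dominant-negative helix-loop-helix factors and direct BMP targets, fell together. ID2 was 9.11 and 7.91 in the controls and 6.52, 6.41, 6.06 and 6.28 in the window, a change of -2.20 ± 0.41 (adjusted p = 0.0120). ID3 was 11.50 and 9.90 in the controls and 9.10, 8.93, 8.56 and 8.48 in the window. ID1 was 12.31 and 12.02 in the controls and 11.34, 11.70, 11.47 and 11.55 in the window. In all 3 the 24 h control was the lower of the controls, and the treated arrays were lower still. Within the 14 BMP and TGF-beta genes 3 others rose: SKIL and SKI, inhibitors of SMAD signalling, and the receptor gene TGFBR1, which rose by 1.00 ± 0.12. PMEPA1, a TGF-beta target that also restrains SMAD signalling, was 7.88 and 7.67 in the controls and 10.01, 10.12, 10.05 and 9.99 in the window.

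Of 11 clock genes 4 fell and 1 rose. DBP, a clock output factor, was 9.26 and 9.04 in the controls and 7.40, 7.54, 7.14 and 7.31 in the window, though its second probe set did not move the same way. BMAL1, NR1D2 and TEF also fell, and the repressor BHLHE40 rose by 1.06 ± 0.20. The labels do not settle whether all arrays were harvested together or hour by hour, so time of harvest and treatment cannot be told apart for these genes.

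Other genes among the leading falls encode surface proteins and scaffolds. PTPRH, a receptor tyrosine phosphatase, fell by 1.68 ± 0.24, and TNFSF18, the TNF family ligand GITRL, by 1.64 ± 0.21. ANK3, which encodes the membrane scaffold ankyrin-G, fell by 1.62 ± 0.32, and GDPD1, a glycerophosphodiester phosphodiesterase gene, by 1.93 ± 0.41. ANKEF1 fell by 1.69 ± 0.20. EMCN and CDH5, best known from endothelium, fell by 1.75 ± 0.24 and 1.75 ± 0.47. All window values of EMCN, GDPD1 and ANKEF1 lay below log2 5.79. These genes were tested through their other arrays, and the size of their falls is uncertain. CDH5 lost its call without any one treated array and with either control alone. It read 7.36 and 7.85 in the controls and 5.81, 5.96, 5.59 and 6.04 in the window. Of 6 endothelial markers, 3 were under log2 5.79 in every array.

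Among the leading rises outside these lists, NPL, a lyase of sialic acid breakdown, was 5.73 and 5.91 in the controls and 8.41, 8.66, 8.47 and 8.41 in the window. TNFRSF9, a costimulatory receptor of the TNF receptor family, was 5.87 and 7.36 in the controls and 8.57, 8.60, 8.51 and 8.81 in the window. SPIDR, a scaffold gene of homologous recombination, rose by 2.26 ± 0.20 (limma, adjusted p = 0.00071), with 3 of its 4 probe sets moving the same way. Its controls, at 4.76 and 5.51, both lay below the level that a gene's mean had to reach to be tested. SPIDR was therefore tested through its treated arrays, and the size of its rise is uncertain. B3GNT5, a glycosyltransferase of lacto-series glycolipids, was 5.33 and 5.81 in the controls and 8.34, 7.98, 7.45 and 7.20 in the window. The first 3 genes were level across the window, and B3GNT5 was lower at each later hour.

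Lists of cellular stress were as follows. Of 18 NRF2 targets 4 rose, of 15 heat shock genes 4, of 19 genes of the unfolded protein response 4, and 0 fell in any of these lists. At an unadjusted p below 0.05 each of the 3 lists had 6 higher and 0 lower. HMOX1, the haem-degrading enzyme, was 7.95 and 9.18 in the controls and 12.65, 11.85, 11.17 and 9.80 at 4, 5, 6 and 7 h, so that the 7 h array stood 0.62 above the higher control. Its change was 2.80 ± 0.68 (adjusted p = 0.0254). It did not pass the test against the 24 h control alone (2.19, adjusted p = 0.13), without the 5 h array (adjusted p = 0.0611) or without the 6 h array (adjusted p = 0.0543). NQO1 and GCLM, the usual NRF2 readouts, did not pass either. DNAJA1, an HSP40 co-chaperone, rose by 1.21 ± 0.18, ABCC3, a multidrug transporter, by 1.17 ± 0.14, and SDF2L1, an ER chaperone cofactor, by 1.21 ± 0.30. Calls on HSPE1, CHORDC1 and PIR had adjusted p values of 0.0311 to 0.0405.

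Of 27 ribosome biogenesis genes 12 rose by small amounts and 0 fell, and the median change of the 27 was 0.33. With p below 0.05 before adjustment, 19 were higher and 1 lower. RRS1, a ribosome assembly regulator, was 9.52 and 9.61 in the controls and 10.47, 10.60, 10.47 and 10.55 in the window, a change of 0.96 ± 0.11 (adjusted p = 0.00264). NOP16 rose by 0.63 ± 0.10, RRP9 by 0.62 ± 0.12 and PNO1 by 0.48 ± 0.09. Of 25 hypoxia and glycolysis genes 2 rose and 3 fell. The glucose transporter gene SLC2A1 rose by 0.58 ± 0.09, while SLC2A3, whose probe set may cross-hybridise, fell by 1.06 ± 0.26.

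For 7 further lists the counts alone are given. Of 20 sterol and fatty acid genes 3 rose, of 17 aminoacyl-tRNA synthetase genes 1 rose, of 26 oxidative phosphorylation genes 1 rose and of 15 p53 targets 1 fell. Among 11 YAP targets and 15 genes of matrix remodelling, 1 rose and 1 fell in each list. Of 23 proteasome genes 0 passed the limma test at the adjusted threshold, and 6 were higher and 0 lower at an unadjusted p below 0.05. The median change of these lists lay between -0.16 and 0.13.

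**Figure D3:**
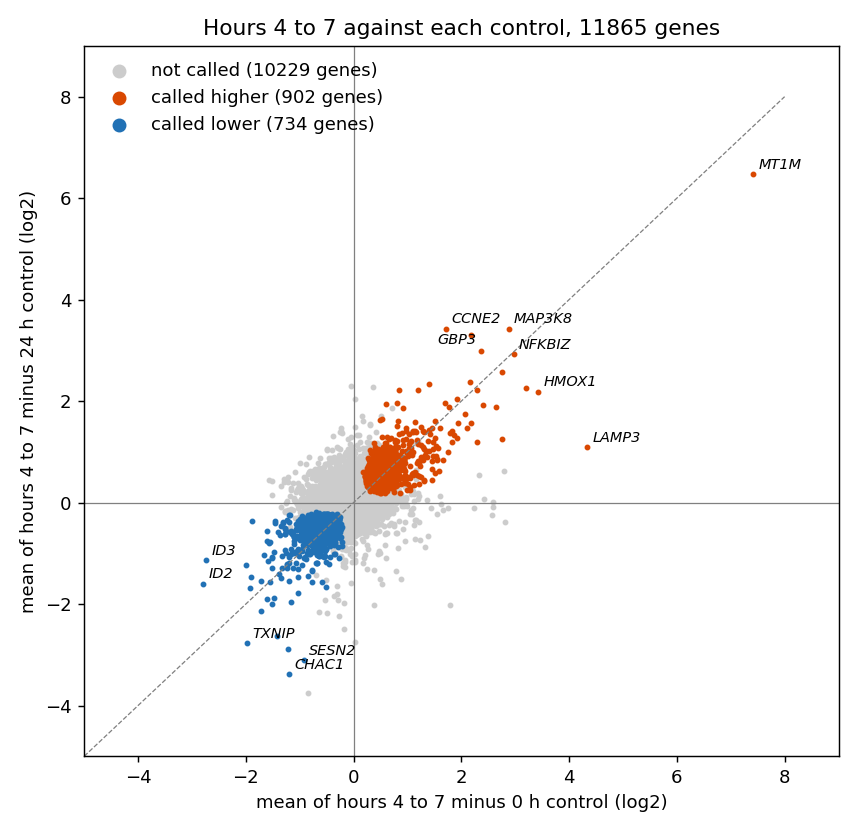
Mean of the 4 to 7 h arrays minus the 0 h control (log2, x axis) against the same mean minus the 24 h control (log2, y axis) for 11865 genes; orange and blue points are genes that rose and fell in the test against both controls, and the dashed line marks equal differences. LAMP3 lies far to the right of the line and CCNE2 above it, while CHAC1 and SESN2 lie below it, so their change depended on the control used.

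The controls differed by 2-fold or more in 276 of the genes tested, and the comparison was repeated with each alone, the lone control being assumed to vary like the treated arrays. Against the 0 h control 1489 genes (12.5%) were called, 664 (5.6%) higher and 825 (6.95%) lower. Against the 24 h control 1135 (9.57%) were called, 741 (6.25%) higher and 394 (3.32%) lower. The number called in the same direction in both was 399 (3.36%), with 246 (2.07%) higher and 153 (1.29%) lower, which is 26.8% of the first list and 35.2% of the second. These comparisons share the treated arrays. Of the 15 leading rises and 15 leading falls, CCNE2, CHAC1, TRIB3, SESN2, GDPD1 and CDH5 did not pass the test against the 0 h control alone, and HMOX1, LAMP3, B3GNT5, ID2, CDH5 and ANK3 did not against the 24 h control alone. In 45 of the 1636 genes called against both controls, the controls lay farther apart than the change itself.

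LAMP3, a lysosomal membrane protein gene that amino acid stress induces, had the widest gap between controls among the called genes. It was 4.52 in the 0 h control and 7.76 in the 24 h control, and 9.15, 8.80, 8.80 and 8.69 in the window. The 0 h value lay below log2 5.79, so the difference from it, 4.34, is of uncertain size. The difference was 1.10 against the 24 h control (adjusted p = 0.0771 alone). Leaving out any one of the treated arrays also cost LAMP3 its call, with adjusted p of 0.0526 to 0.0638. The treated 24 h array, at 4.82, was close to the 0 h control.

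The ATF4 and amino acid response list depended on the control as a whole. Of 26 genes tested 7 fell and 0 rose, and the median change was -0.45, but it was 0.11 against the 0 h control and -1.01 against the 24 h control. ATF4 itself was 12.05 and 12.80 in the controls and 11.01, 11.07, 11.03 and 10.99 in the window, a change of -1.40 ± 0.24 (adjusted p = 0.00935). All 4 treated arrays were at least 0.98 below both controls.

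CHAC1, a glutathione-degrading enzyme gene, was 7.20 and 9.39 in the controls and 5.88, 5.94, 6.37 and 5.85 in the window. SESN2, a leucine sensor gene of mTORC1 control, was 8.65 and 10.83 in the controls and 7.75, 7.82, 7.69 and 7.62 in the window. TRIB3, a pseudokinase gene, was 10.46 and 12.13 in the controls and 9.86, 9.18, 9.01 and 8.93 in the window. In all 3 the treated arrays lay below both controls, nearer to the 0 h control. Against the 0 h control alone none of these 3 passed the test, with adjusted p of 0.163 for CHAC1, 0.272 for SESN2 and 0.107 for TRIB3. CHAC1 and SESN2 also lost the call without any one of the treated arrays, and TRIB3 without the 6 h array. ASNS, asparagine synthetase, had a change of 0.82 ± 0.38 and did not pass the test. GDF15, at -2.30 ± 0.72, did not pass either (adjusted p = 0.0605).

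For CHAC1, the CARE motif TGATGNAA, the composite site that ATF4 binds, had 1 match in the promoter (capitals, on the reverse strand), at chr15:40953242-40953289 on the plus strand. The motif was in 1.7% of windows of the genes tested and in 3 of the 52 windows (5.8%) of genes that fell by 2-fold or more. CHAC1 also held 1 kappaB match, not marked here, and so is among the falling genes counted with that motif above.
CHAC1: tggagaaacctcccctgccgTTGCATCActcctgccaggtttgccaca

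Cell cycle genes also split by control. Of 37 genes of the G1/S transition and DNA replication 5 rose and 0 fell. Their median change was 0.57, made of -0.07 against the 0 h control and 1.10 against the 24 h control. Of 36 G2/M and mitosis genes 3 fell and 0 rose, with a median of -0.82 against the 0 h control and 0.07 against the 24 h control. CCNE2, cyclin E2, was 7.86 and 6.15 in the controls and 9.04, 9.68, 9.81 and 9.79 in the window, a change of 2.57 ± 0.50 (adjusted p = 0.0133). CDC25A, the phosphatase that activates CDK2, was 7.73 and 6.71 in the controls and 8.55, 8.96, 9.09 and 9.11 in the window. In both, the treated arrays lay above both controls and the 4 h array was the lowest of the window. At an unadjusted p below 0.05, 11 of the replication genes were higher and 0 lower, and 10 of the mitotic genes were lower and 0 higher. Against the 0 h control alone CCNE2 did not pass the test (1.72, adjusted p = 0.0595).

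CCNE1 rose by 1.19 ± 0.21 and the histone mRNA binding gene SLBP by 0.71 ± 0.18, while the second probe set of CCNE1 moved the other way. CDC6, the fifth of the called replication genes, overlapped a control: its 4 h value of 8.75 was below the 0 h control at 8.78. Of the mitotic genes, CDC25C fell by 1.18 ± 0.23, KIF14 by 0.80 ± 0.18 and CDC25B by 0.67 ± 0.13. CENPA, at -0.39 ± 0.12, did not pass the test (adjusted p = 0.0605).

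The promoter of CDC25A held 1 match to the E2F motif, TTTCCCGC or TTTGGCGC, in capitals at chr3:48188434-48188481 on the minus strand. The motif was in 3.7% of windows of the genes tested and in 3 of the 74 (4.1%) of genes that rose by 2-fold or more, a share near that of all genes tested.
CDC25A: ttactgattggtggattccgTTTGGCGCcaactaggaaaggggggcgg

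**Figure D4:**
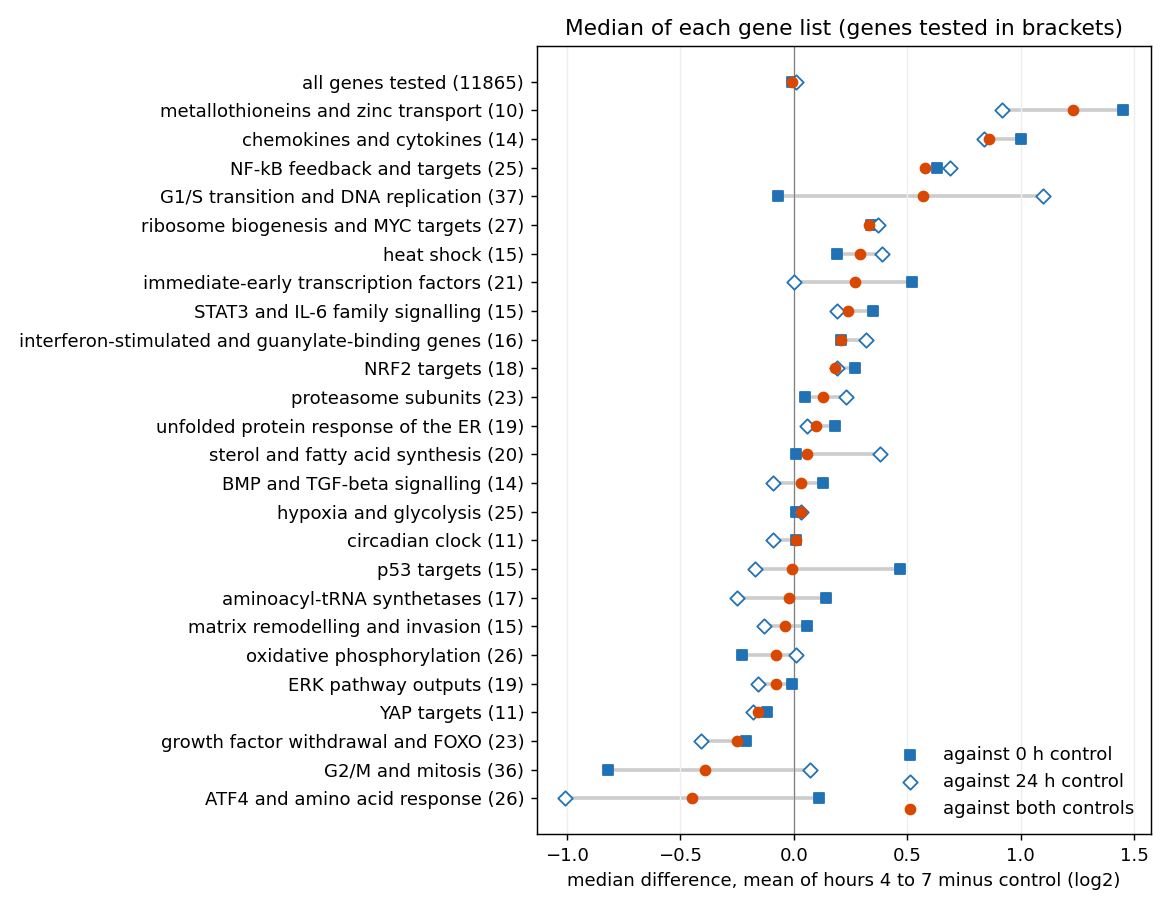
Median difference (log2, x axis) between the mean of hours 4 to 7 and the 0 h control (squares), the 24 h control (diamonds) and both (circles) for each gene list and all genes tested, with the number of genes tested in brackets. Medians of the metallothionein, chemokine and NF-kB lists lie well right of 0 with either control, whereas those of the ATF4, G1/S and G2/M lists reach 0 or cross it with one of them.

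Within the window, 7 h was compared with 4 h by single arrays, with no test. A difference of 2-fold or more was seen in 29 genes upward (0.244% of those tested) and 60 downward (0.506%), and in 0 upward and 6 downward of the 1632 genes beyond both controls. The 7 h array was the farthest from the controls in 464 of the 1632, the 6 h array in 425, the 4 h array in 393 and the 5 h array in 350. Among the 898 that rose, 118 moved further at each hour and 100 moved back at each hour. Among the 734 that fell, 93 moved further and 44 moved back at each hour. The share of such runs over all genes tested was not computed.

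**Figure D5:**
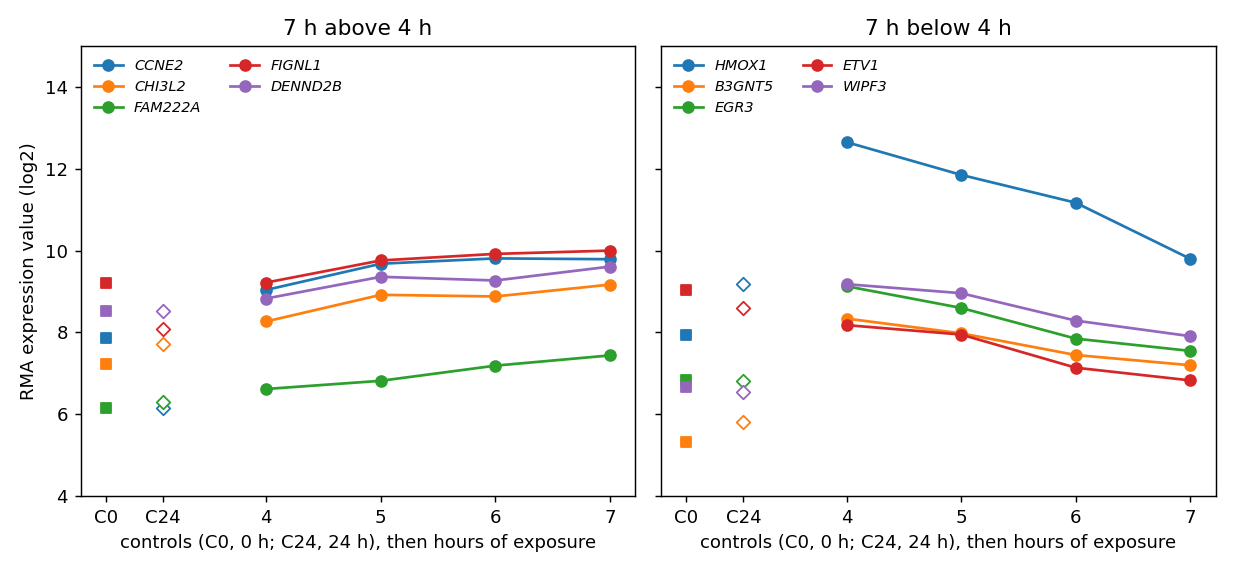
RMA expression value (log2, y axis) at 4, 5, 6 and 7 h (circles and lines) and in the 0 h (C0, squares) and 24 h (C24, diamonds) controls, for the 5 genes with the largest upward (left) and downward (right) difference between 7 h and 4 h among called genes beyond both controls. HMOX1 drops by 2.86 over the 3 h, while no gene in the left panel rises by 1 or more.

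Among the called genes beyond both controls, those that gained most from 4 to 7 h were CHI3L2, FAM222A, FIGNL1, DENND2B and CCNE2. CHI3L2, a chitinase-like secreted protein gene, was 7.24 and 7.73 in the controls and 8.27, 8.92, 8.88 and 9.17 in the window, and 9.22 in the treated 24 h array. FIGNL1, a recombination ATPase gene, was 9.20 and 8.08 in the controls and 9.22, 9.76, 9.92 and 10 in the window, so its 4 h array was only 0.02 above the 0 h control. FAM222A rose by 0.78 ± 0.19 and DENND2B by 0.74 ± 0.18, both with the lowest treated value at 4 h. FIGNL1, FAM222A and DENND2B each lost their call without the 6 h array.

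Within the same set, those that lost most were HMOX1, EGR3, ETV1, WIPF3 and B3GNT5. WIPF3, an actin regulator gene, was 6.67 and 6.55 in the controls and 9.18, 8.96, 8.29 and 7.91 in the window. ETV1 was 9.03 and 8.59 in the controls and 8.18, 7.95, 7.14 and 6.83 in the window, and so moved away from the controls as it fell. HMOX1, EGR3, WIPF3 and B3GNT5 moved back toward them. ETV1 lost its call without the 6 h array (adjusted p = 0.0719).

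Against hours 1 to 3, 2064 genes (17.4%) were called, 1449 (12.2%) higher and 615 (5.18%) lower. Of the 898 genes above both controls, 479 were further from them than at 1 to 3 h, 8 were nearer and 411 were not called different. Of the 734 below both controls the numbers were 221, 6 and 507. This test rested on the 2 h array: without it 3 genes were called in place of 2064. CCNE2 (2.54 higher than at 1 to 3 h), ZNF367 (1.88), GBP3 (1.72), GBP1 (1.71) and CDC25A (1.52) had the largest positive differences among the called genes beyond both controls. TRIB3 (-2.03), EGR3 (-1.64), GDPD1 (-1.44), KLF9 (-1.40) and PDE4D (-1.38) had the largest negative ones in that set. None of these 10 was called without the 2 h array. Outside that set, ORC1, a replication origin gene, differed by 2.55 and the zinc exporter gene SLC30A1 by -2.27.

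ZNF367, a zinc finger factor gene, read 7.66, 7.53 and 8.07 at 1, 2 and 3 h and 9.13, 9.77, 9.78 and 9.85 at 4, 5, 6 and 7 h, against 8.79 and 7.42 in the controls. KLF9, a Krueppel-like factor gene, read 10.17, 9.88 and 9.02 at 1, 2 and 3 h and 8.37, 8.29, 8.18 and 8.31 in the window, against 9.52 and 9.49 in the controls, and 3 of its 5 probe sets moved the same way. It was above the controls at 1 and 2 h and below them from 3 h on. PDE4D, a cAMP phosphodiesterase gene, was 7.00 and 7.02 in the controls and 5.69, 5.54, 5.06 and 5.49 in the window.

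At 24 h of exposure, in 1 array with no test, 553 of the 898 genes above both controls also lay above both. Of the 734 below both controls, 525 also lay below both. Of the 15 leading rises 13 lay beyond both the same way, all but HMOX1 and LAMP3, and of the 15 leading falls 12. The share over all genes tested was not computed, and these genes had been selected against the same controls. The counts therefore do not show a lasting response. NFKBIZ was 10.02 and PMEPA1 9.38 at 24 h, both far above their controls, whereas CDH5, at 7.71, was back between its controls.

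Checks of the cells were as follows. Of 8 epithelial markers 6, keratins KRT8 and KRT18 among them, were above log2 5.79 in every array, while EPCAM and CDH1 were low throughout, at 2.97 to 3.79 in the 6 arrays. Of 15 stellate cell or fibroblast markers 5 were below that level in every array and 5 above it, including COL1A2, which fell by 0.60 (adjusted p = 0.00871), and COL3A1, which fell by 0.86. The summed log2 value of the 15 was 92.18 to 94.03 in the window and 93.50 to 95.25 in the controls. PDGFRB, POSTN, FAP and LUM, picked from the low members of this list, read 2.66 to 4.57 and do not stand for the 15. Of 9 immune markers 5 were below the level in every array. Summed values did not overlap for the immune markers (47.67 to 49.33 in the window, 49.87 to 49.93 in the controls), the 6 endothelial markers (29.83 to 30.66 against 31.57 to 32.87) or the 8 epithelial markers (67.20 to 67.54 against 67.85 to 67.86), all lower in the window. The endothelial sum includes CDH5, which fell by 1.75, so that sum is not separate from this leading fall. The part of these shifts in the results was not tested. CDKN2A, a gene deleted in this line, read 6.66 to 7.30, so a value above log2 5.79 does not by itself show expression. In bulk RNA a smaller share of expressing cells and less RNA per cell cannot be told apart.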

How the data were processed

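RNA of MiaPaCa-2 cells was measured on 10 arrays, and per the submitters' processing notes the authors used RMA, which gave the deposited log2 intensities. Values of the full table ran from 2.1 to 14.79, with array medians of 5.495 to 5.606. A deposited filtered table of 7622 probe sets, by a rule not given in the sources used here, was an alternative. Of 54675 probe sets, 41097 had 1 gene symbol in GEO's platform annotation, 1801 had several and 11777 had none. The brightest probe set on average stood for each of 19775 genes. Of these, 11865 were tested, those whose mean reached the 40th percentile (log2 5.79).

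In limma 3.58.1 (R 4.3.3), lmFit and eBayes were fitted to 9 arrays in 3 groups (controls, hours 1 to 3, hours 4 to 7) with 6 residual degrees of freedom. Tests were two-sided, with Benjamini-Hochberg adjustment over all genes tested and a threshold of 0.05. The fit was checked on simulated data, in which controls were drawn with the spread of the treated arrays. That check therefore left out the gap between the real controls. Standard errors are those of the fit. Each control was also used alone. The arrays' number limits the precision, and no batch information was used.

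Gene lists are described by counts and medians, without a set test. Genes named are the 15 largest rises and falls among called genes beyond both controls, the 5 each way with the widest gap, the largest difference between 7 and 4 h or the largest difference from hours 1 to 3, the 5 with the controls farthest apart, and the 4 members of smallest p of each list described; others are named as members of a list or to make up a count. The comparison, members and lists were chosen with earlier results of these data known. Promoter windows of 300 bases came from RefSeq (GRCh38.p14), and motifs were searched on both strands. Windows of 9669 tested genes matched by symbol. Tables were read with Python 3.11.15, pandas 2.3.3 and numpy 2.4.6 and plotted with matplotlib 3.10.9.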

Additional observations from a re-analysis of the deposited data

Results flagged for a closer look

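In 8 of the 101 named genes 1 of the 4 arrays of hours 4 to 7 stood apart from the other 3 by Dixon's criterion, given as the gap over the range. Chance gives about 1 in 20. The 4 h array stood apart in CCNE2 (0.839), ZNF367 (0.896), TSC22D3 (0.874) and DNAJB11 (0.831), where it was lowest, and in PTPRH (0.919), where it was highest. The 6 h array was lowest in EMCN (0.891) and YPEL3 (0.833), and the 7 h array was highest in SKI (0.922). The window spans 3 h of exposure, so an array at its edge differs in time as well.

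Of the named genes called against the controls, 49 also differed between hours 4 to 7 and hours 1 to 3 (limma, both windows in one fit). On the log2 scale 26 were higher in the later window: CCNE2 (2.54), ZNF367 (1.88), GBP3 (1.72), GBP1 (1.71), CDC25A (1.52), PMEPA1 (1.51), FIGNL1 (1.44), SDF2L1 (1.36), TNFAIP2 (1.28), NPL (0.99), IFIH1 (0.96), CHI3L2 (0.84), CCNE1 (0.84), RRS1 (0.82), DENND2B (0.78), SLBP (0.74), FAM222A (0.72), DUSP2 (0.70), NOP16 (0.68), ABCC3 (0.66), PIR (0.65), MANF (0.65), RRP9 (0.62), TAP1 (0.57), DNAJA1 (0.54) and DNAJB11 (0.37). The other 23 were lower: TRIB3 (-2.03), EGR3 (-1.64), GDPD1 (-1.44), KLF9 (-1.40), PDE4D (-1.38), ID2 (-1.27), PTPRH (-1.23), SLC2A3 (-1.11), SPRED2 (-1.07), ETV1 (-0.97), YPEL3 (-0.97), BHLHE40 (-0.96), DBP (-0.92), PSPH (-0.85), TNFSF18 (-0.83), EMCN (-0.78), CCNG2 (-0.69), ERBB3 (-0.62), ANKEF1 (-0.60), CDC25B (-0.57), FOSL2 (-0.53), IRF1 (-0.52) and NR1D2 (-0.40). Without the 2 h array none of the 49 was called, with limma adjusted p values of 0.0504 to 0.17.

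Probe sets without a single gene symbol were tested apart. Of 5689 above the same level, 320 passed the test against the controls, 175 higher and 145 lower.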

How the results depend on the processing

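No paired analysis was possible because each hour had 1 array and the numbers within a group only name arrays. Cyclic loess scaling, both other filters, averaging the probe sets of each gene, the filtered table, a robust prior with an intensity trend, and fits of 6 or 10 arrays kept every count of genes called or beyond both controls within 1.5 times, and no named gene changed direction under any alternative. With each probe set on its own, 1151 were lower, 2451 lay beyond both controls and 3570 differed from hours 1 to 3. Against the 24 h control alone 394 genes were lower, and against the 0 h control alone 825. With either control alone 2886 genes differed from hours 1 to 3. Against the 0 h control alone 400 genes were further from the controls than hours 1 to 3, in place of 700.

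Leaving out 1 treated array at a time, from 1 to 7 h, gave 740 to 1754 genes called, 441 to 1007 higher and 299 to 805 lower; beyond both controls they were 740 to 1753, 441 to 1006 and 299 to 805. The lowest counts came when the 6 h array was left out. Without the 5 h array 858 were called, and 999 without the one at 7 h. Genes called against hours 1 to 3 numbered 3 to 2488, and those further from the controls 1 to 949, the lowest being without the 2 h array; with the 1 h array left out they were 620 and 239. Of the 15 leading rises 11, and of the 15 leading falls 8, stayed called in every fit that left out 1 array or used 1 control. Of the 101 named genes, 29 lost their call with the 0 h control alone, 22 with the 24 h control alone and 12 to 28 without one of the 4 treated arrays. Without any one of the 4 treated arrays LAMP3, CHAC1, SESN2, CDH5, FOSL2, CHORDC1, PIR, TXN, DNAJB11 and HK1 lost theirs. HMOX1, KIF14, FIGNL1, DENND2B, NR1D2, SLBP, HSPE1, PSPH, SDF2L1, DNAJC3 and SLC2A3 lost theirs when either the 5 h or the 6 h array was left out, as did HSPH1 and PFKFB3. Of these, HSPH1 and PFKFB3 also lost the call without the 4 h array. All the others except HMOX1 and KIF14 also lost it without the 7 h array. TRIB3, FAM222A, ETV1, KLF2 and SPRED2 lost theirs without the 6 h array alone, and EGR3 without the 5 h array alone. Leaving out the 2 h array ended the call for SESN2, FIGNL1, FOSL2, CHORDC1, DNAJB11 and PFKFB3. The 1 h array did so for FIGNL1 and FOSL2 and the 3 h array for PFKFB3. These fits have fewer arrays, and no other cause was tested.

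Genes beyond both controls numbered 354 at a minimum distance of 0.5 and 60 at 1. Genes changing between 4 and 7 h numbered 587 at a difference of 0.58 and 6 at 2, in place of 89.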
